A study of Mus musculus with 15 samples.

Results

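Tumours treated with B20 were compared with tumours taken before any treatment, called T0 in the labels. The comparison used the 4 arrays titled B20 at the end of treatment and the 4 titled T0, which are 8 of the 15 arrays of the series. B20, the antibody B20-4.1.1, was injected intraperitoneally into female MMTV-PyMT mice at 5 mg/kg in 2 doses per week, starting at 7 weeks of age, and the mammary tumours were dissected at the end. The T0 labels give female mammary tumours before treatment and name neither the mouse model nor an age, and no label gives the length of treatment. The 3 vehicle arrays and the 4 nintedanib arrays (85 mg/kg per day by oral gavage) were also from treated MMTV-PyMT tumours. Vehicle and nintedanib were likewise started at 7 weeks of age. Their values are given beside those of B20 where they bear on a gene. In T0 replicate 4 a vehicle label stands beside the label for no treatment, and it was kept in T0 by its title. No label states that the tumours of a group were from different animals. The p-values therefore cover the variation among these arrays, which may be technical.

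Vascular endothelial growth factor A (VEGF-A) binds receptors on endothelial cells and drives the sprouting of new vessels, and tumours use it to build their blood supply. B20 is an antibody that binds VEGF-A and keeps it from its receptors. Nintedanib is a small molecule that inhibits the kinases of the VEGF, FGF and PDGF receptors. In MMTV-PyMT mice a viral promoter active in mammary epithelium drives the polyomavirus middle T oncogene, and tumours grow inside a mammary gland that also holds fat, vessels, stroma and, nearby, muscle. RNA from a whole tumour mixes all of these, so that fewer cells of a type and less RNA per cell cannot be told apart.

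Levels are log2 signals relative to the 75th percentile of the same array, so that 0 is that percentile, and a difference is the B20 mean minus the T0 mean in log2 units. All T0 arrays lay on slides of their own and were scanned on another day, with another version of the Feature Extraction protocol, so treatment, time, slide, scan day and protocol cannot be told apart. The spike-in controls had median net signals of 1021 to 1279 on the T0 arrays and of 246 to 307 on the B20 arrays. The share of probes well above background was 59.3% to 62.6% on the B20 arrays and 53.5% to 59.8% on T0 replicates 1, 2 and 4, but 84.2% on T0 replicate 3, whose median spot signal was 102 against 55 to 60 on the other T0 arrays. No spot was saturated.

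Of 28074 genes tested with limma, 2666 (9.5%) differed at an adjusted p under 0.05 and are called changed below. Of these, 1620 (5.77%) were higher and 1046 (3.73%) lower after B20, and the median difference over all genes was 0.08. The 16140 genes with a symbol made up 695 of the higher and 818 of the lower calls. The lists below hold only genes with a symbol, so the shares of all genes cover a wider set than the lists. List counts given without a share are to be read beside the shares of all genes. The number of calls, 2666, depended on single arrays: it was 919 without B20 replicate 4, 1165 without B20 replicate 2, 1081 without T0 replicate 1 and 1350 without T0 replicate 2. It was 1536 with slide as a random block. On the slides that B20 shares with vehicle, B20 against vehicle gave 0 calls by limma, with a lowest adjusted p of 0.255 and 910 genes (3.24%) at an unadjusted p under 0.05, and vehicle against the same T0 arrays gave 1380 calls (4.92%, with 2.8% higher and 2.12% lower). Nintedanib against T0 gave 3208 (11.4%, with 6.81% higher and 4.61% lower). At an unadjusted p under 0.05, 26.1% of genes differed between B20 and T0, and for 15.5% the arrays of the groups did not overlap.

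**Figure D1:**
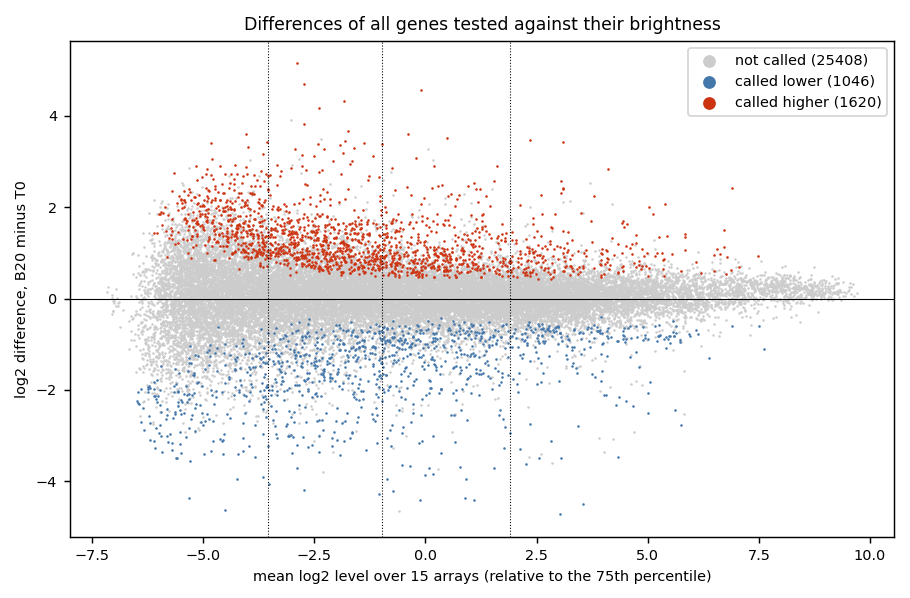
Difference between B20 and T0 (log2, vertical axis) against the mean level over 15 arrays (log2 relative to the 75th percentile, horizontal axis), 1 point per gene, with genes called higher in red, called lower in blue and not called in grey. Dotted lines divide the genes into 4 equal bins of mean level, and the 1620 higher calls are spread over all 4 bins, with 594 in the second and 211 in the brightest.

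Higher calls were most frequent in the second dimmest of the 4 bins by mean level over all 15 arrays and least frequent in the brightest. In the dimmest bin, 392 genes were called higher and 208 lower. The calls were 594 and 326 in the second bin, 423 and 314 in the third and 211 and 198 in the brightest. With normexp background correction in place of the scanner's own, the dimmest bin gave 13 higher and 21 lower calls and the brightest 225 and 223. Most values below are of genes well above background on all 8 arrays.

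Endothelial genes were lower after B20. Of 28 endothelial markers, 21 fell and none rose, against 3.73% of all genes called lower, and the median difference of the list was -1.49. Esam, an adhesion molecule of endothelial junctions, had levels of 2.55, 2.04, 1.37 and 1.53 on the T0 arrays and -0.16, -0.08, 0.06 and -0.30 on the B20 arrays, a 3.98-fold fall (difference -1.99, SE 0.27, adjusted p = 0.00357). Every B20 array was below every T0 array. Cdh5, the cadherin of endothelial junctions, was at 2.10, 1.73, 0.61 and 0.73 before treatment and at -0.61, -0.75, -0.29 and -0.38 after B20 (difference -1.80, SE 0.33, adjusted p = 0.0095). T0 replicates 1 and 2, on one slide, stood above T0 replicates 3 and 4, on the other, for both genes, and no B20 array reached either pair. Tie1, a receptor kinase of endothelial cells, fell by 1.91, Mmrn2, an endothelial matrix protein, by 1.70 and Sox17, a transcription factor of arterial endothelium, by 1.52, each with B20 and T0 arrays apart. The other falls included the tight junction gene Cldn5 (-1.98), the guidance receptor Robo4 (-1.98), Sox18 (-1.88), Plvap of the diaphragms of fenestrae (-1.63), the angiopoietin receptor Tek (-1.48) and Pecam1 (-0.91, adjusted p = 0.0132). Members that were not called were Vwf (-1.07), Emcn (-1.02), Egfl7 (-0.87), Fli1 (-0.87), Tal1 (-0.75), Clec14a (-0.31) and Myct1 (-0.07).

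The vehicle arrays lay between T0 and B20 for these genes. The median of the same 28 genes was -0.85 for vehicle against T0 and -0.47 for B20 against vehicle, on the shared slides, where no gene was called. Esam was 0.76 lower after B20 than after vehicle and 1.23 lower after vehicle than at T0. The mean level of the list was -0.01 to 1.25 on the T0 arrays, -1.08 to -0.62 on the B20 arrays and -0.63 to -0.10 on the vehicle arrays. The number of endothelial falls was 13 without B20 replicate 4, 17 with slide as a random block and 2 with T0 replicates 3 and 4 as the only T0 arrays. Esam, Cdh5, Tie1, Mmrn2, Sox17 and Pecam1 were called with slide as a random block and with each of the 8 arrays left out.

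**Figure D2:**
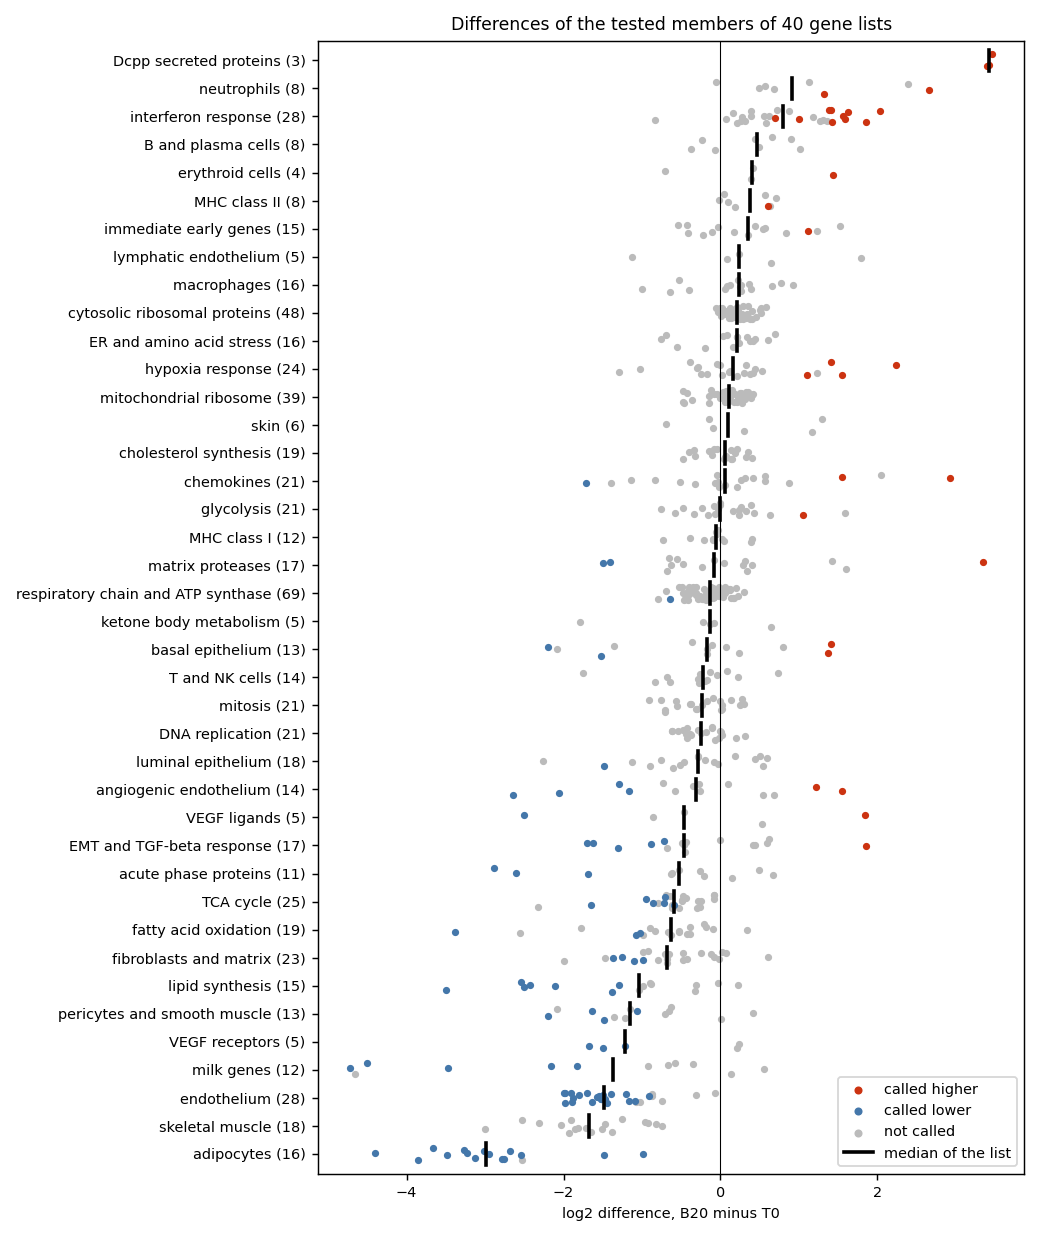
Difference between B20 and T0 (log2) for each tested member of 40 gene lists, ordered by list median, with the number of tested members in brackets, members called higher in red, called lower in blue and not called in grey, and the list median as a black bar. Adipocyte markers sit farthest left with a median of -2.98 and 15 of 16 called lower, and all 28 endothelial markers lie below 0.

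Genes of the VEGF pathway itself moved in both directions. Among 5 ligands, Pgf, a ligand of the receptor Flt1, rose from -1.20, -1.37, -1.15 and -0.89 on the T0 arrays to 1.39, 1.02, -0.02 and 0.36 on the B20 arrays (3.58-fold, difference 1.84, SE 0.33, adjusted p = 0.00878). The T0 arrays were close together and all B20 arrays were higher. Vegfd, a ligand of lymphatic vessels, fell (difference -2.51, SE 0.64, adjusted p = 0.0292), with T0 replicate 4 at -2.37 and B20 replicate 1 at -2.28, so that the groups overlapped. Vegfa, which B20 binds, was not called, with 0.56 to 2.13 on the T0 arrays and 0.96 to 2.28 on the B20 arrays (difference 0.53, SE 0.43, adjusted p = 0.467). Vegfb (-0.86) and Vegfc (-0.46) were not called either. The Vegfd call was lost without B20 replicate 2, 3 or 4 or T0 replicate 1 or 2, and with slide as a random block.

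Of 5 receptors, 3 fell (60%, against 3.73% of all genes called lower) and none rose. The list median was -1.22, beside -0.87 for vehicle against T0 and -0.35 for B20 against vehicle. The co-receptor Nrp1 was at -0.76, -1.22, -2.07 and -1.40 at T0 and at -2.73, -3.06, -2.42 and -3.95 after B20 (difference -1.68, SE 0.33, adjusted p = 0.0118), and Nrp2 fell by 1.22. Flt1, which binds VEGF-A and Pgf, was at 3.0, 2.38, 1.23 and 1.09 at T0 and at 0.12 to 0.66 after B20 (difference -1.50, SE 0.41, adjusted p = 0.0361). The Flt1 call was lost when B20 replicate 1, 2, 3 or 4 or T0 replicate 1 or 2 was left out and with slide as a random block, and the Nrp2 call was lost without B20 replicate 4, which left 1 receptor called. Kdr, the main signalling receptor of VEGF-A on endothelium, could not be read with confidence, since its brighter probe differed by 0.22 (SE 0.25, adjusted p = 0.63) and its other probe by -1.53. Flt4, the receptor of lymphatic endothelium, was not called (0.24) and was well above background on 3 of the 8 arrays.

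Esm1 and Angpt2, genes of the tip cells that lead vessel sprouts and of activated endothelium, fell. Esm1 was at 1.13, -0.13, -0.03 and -0.79 on the T0 arrays and at -4.04, -1.68, -2.70 and -1.97 on the B20 arrays, a 6.26-fold fall (difference -2.65, SE 0.59, adjusted p = 0.0183). Its mean on the vehicle arrays was -0.05, and the values side by side were -0.10 for vehicle against T0 and -2.54 for B20 against vehicle, where the adjusted p was 1. The Esm1 call was lost without T0 replicate 1. Of 14 genes of angiogenic endothelium, 4 fell and 2 rose, the other falls being Nid2, of the basement membrane (-2.05), Angpt2, a ligand of Tek (-1.29), and the apelin receptor Aplnr (-1.17). Hey1, a target of Notch, rose from 3.67 to 4.16 at T0 to 4.91 to 5.48 after B20 (difference 1.22, SE 0.17, adjusted p = 0.00354), and Adm, the vasodilator adrenomedullin, rose by 1.55. The Notch ligand Dll4 (-0.58) and the apelin gene Apln (-0.26) were not called. Angpt2 and Aplnr lost their calls without B20 replicate 4 or T0 replicate 1, which left 2 falls and 1 fall in the list.

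Cells around vessels showed fewer calls. Of 13 genes of pericytes and smooth muscle, 4 fell (30.8%, against 3.73% of all genes called lower) and none rose. The median was -1.16 (-0.75 without T0 replicate 1). It was -0.96 for vehicle against T0 and -0.06 for B20 against vehicle. Pdgfrb, the PDGF receptor of pericytes, was at 1.54, 1.45, 0.77 and 1.00 at T0 and at 0.05, -0.33, 0.56 and 0.23 after B20 (difference -1.06, SE 0.24, adjusted p = 0.0191). Cspg4, the proteoglycan NG2, fell by 1.64, Rgs5 by 1.49 and Cnn1, calponin, by 2.20. Cnn1, Acta2 and Myh11 are also members of the list of basal epithelium. Acta2, smooth muscle actin, was not called (difference -1.36, SE 0.51, adjusted p = 0.11). No member was called without T0 replicate 1 or in the fit on the 8 arrays alone, 1 was called without B20 replicate 2 or 4 or T0 replicate 2, and 7 were without T0 replicate 4. Lymphatic markers gave 0 calls among 5 tested, with Lyve1 at -1.13 and Ccl21a at 1.79 (adjusted p = 0.347 and 0.507).

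Of 23 genes of fibroblasts and matrix, 4 fell (17.4%, against 3.73% of all genes called lower), with a median of -0.68. The median was -0.32 for vehicle against T0 and -0.24 for B20 against vehicle. Sparc, a matrix glycoprotein, was at 8.65, 8.46, 7.84 and 8.14 at T0 and at 7.33, 7.19, 7.33 and 6.86 after B20 (difference -1.10, SE 0.26, adjusted p = 0.0215). The other falls were Col6a2 (-1.37), the collagen crosslinking enzyme Loxl1 (-1.25) and Thy1 (-0.98), while Col1a1 was not called (-0.65, adjusted p = 0.0965) although its arrays did not overlap. No member was called without B20 replicate 2 or 4 or T0 replicate 1 or 2, and 1 was with slide as a random block. Of 17 matrix proteases and inhibitors, 1 rose and 2 fell (17.6% called, against 9.5% of all genes). Their median was -0.08, with 8 higher and 9 lower in the B20 mean. The collagenase Mmp13 rose 10.2-fold, from -5.19, -4.76, -3.26 and -2.60 to -0.49, -0.04, -0.43 and -1.44 (difference 3.35, SE 0.68, adjusted p = 0.0129), with 3 of the 4 T0 arrays well above background. The aggrecanase gene Adamts5 (-1.50, a call lost with slide as a random block and without B20 replicate 2, 3 or 4 or T0 replicate 1 or 2) and Mmp19 (-1.41, not called with normexp) fell, and the gelatinases Mmp2 (-0.55) and Mmp9 (-0.23, well above background on 5 of the 8 arrays) were not called.

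In the list of epithelial-mesenchymal transition and TGF-beta response, 5 of 17 genes fell and 1 rose (35.3% called, against 9.5% of all genes). The list median was -0.47, beside -0.36 for vehicle against T0 and -0.09 for B20 against vehicle. The falls were Zeb1 (-1.70), Twist1 (-1.62) and Twist2 (-1.30), transcription factors also made by stromal cells, the filament gene Vim (-0.89) and Tgfb2 (-0.72). Vim was at 5.35, 5.15, 4.41 and 5.09 before treatment and at 4.24, 4.32, 3.97 and 3.92 after B20, so every B20 array was lower. Inhba, a subunit of activin, rose by 1.86. Snai1 (0.62), Snai2 (-0.45) and Fn1 (-0.48) were not called, and none of the list was called lower without B20 replicate 2 or 4, 1 was without T0 replicate 1 or 2, and 2 were without B20 replicate 1 or with slide as a random block. The Inhba call was lost with slide as a random block and when any array but B20 replicate 1 or T0 replicate 4 was left out.

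Fat cell genes fell. Of 16 adipocyte markers, 15 fell, with a median of -2.98, the lowest median of the 40 lists, and the exception, Cfd, differed by -2.53. Plin1, which coats lipid droplets, was at 5.04, 4.41, 2.83 and 1.97 on the T0 arrays and at 0.76, -0.79, 0.72 and -1.84 on the B20 arrays, a 14.4-fold fall (difference -3.85, SE 0.92, adjusted p = 0.0233). The groups did not overlap, but T0 replicates 3 and 4 were nearer to B20 than T0 replicates 1 and 2 were. Pck1, of glyceroneogenesis, fell 21.2-fold (difference -4.40), the adipokine genes Adipoq (-3.13), Retn (-3.27) and Lep (-3.24) fell, and so did Fabp4 (-2.76), Lpl (-2.79), the lipase gene Lipe (-2.68) and Pparg (-2.55), the master regulator of fat cells. Of the genes with the largest differences of all, Rbp4 (-3.94), Aoc3 (-3.87) and Sncg (-3.70), which fat cells also make, fell with them. The count of adipocyte falls was 1 without B20 replicate 4, 2 without T0 replicate 1, 3 without B20 replicate 2 or T0 replicate 2, and 6 with slide as a random block. With T0 replicates 3 and 4 as the only T0 arrays it was 0.

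The vehicle arrays were lower still for this list. Its mean level was 2.46 to 4.74 at T0, -0.47 to 1.54 after B20 and -2.16 to -0.24 after vehicle. The median difference was -4.93 for vehicle against T0 and 2.0 for B20 against vehicle, with no gene called in the latter. Plin1 was 2.61 higher after B20 than after vehicle.

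**Figure D3:**
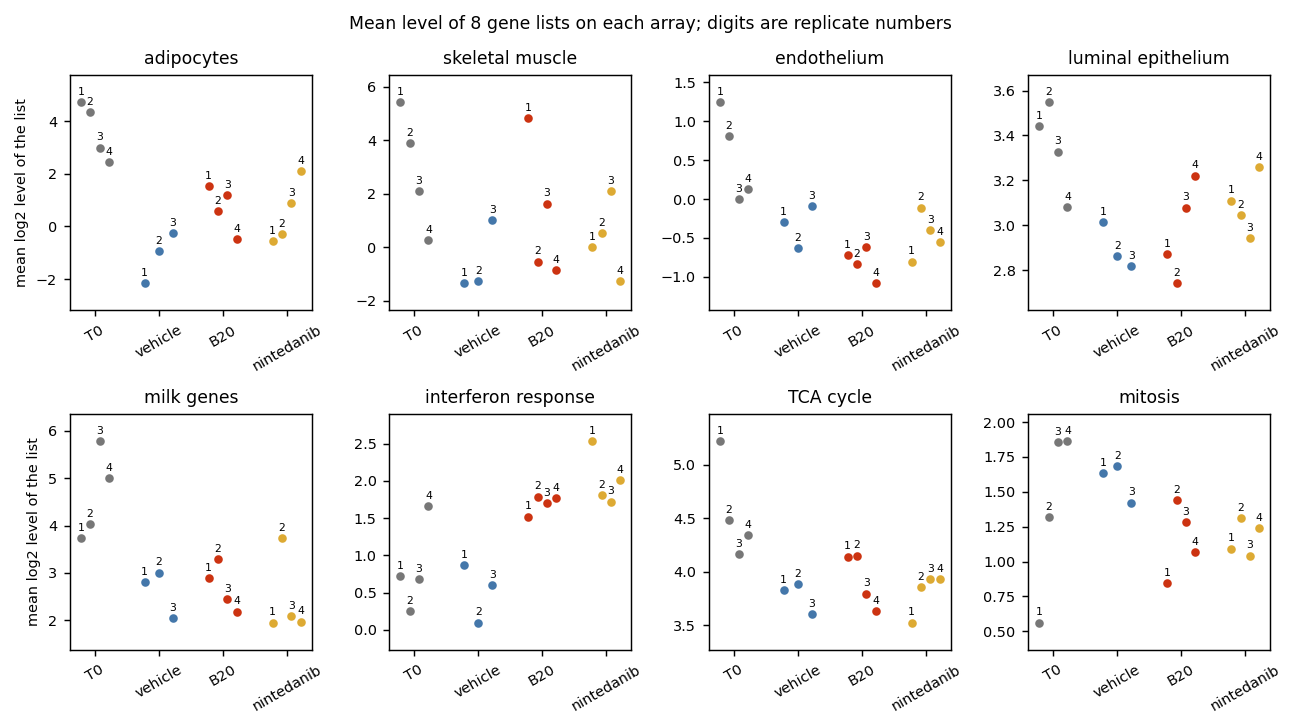
Mean log2 level of the members of 8 gene lists on each array, with T0 in grey, vehicle in blue, B20 in red and nintedanib in yellow, 1 point per array and digits giving replicate numbers. T0 replicates 1 and 2 are highest for adipocytes, and for interferon response T0 replicate 4 is at 1.66, within the B20 range of 1.52 to 1.79.

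Skeletal muscle genes varied between arrays of both groups. All 18 were lower in the B20 mean, with a median of -1.68, and 0 were called. The median was -0.76 without T0 replicate 1, -0.91 without B20 replicate 4, -1.06 without B20 replicate 2, -2.62 without T0 replicate 4 and -2.90 without B20 replicate 1, where 1 gene was called lower. The mean level of the list ran from 0.28 to 5.45 at T0 and from -0.86 to 4.85 after B20, and B20 replicate 1 at 4.85 lay near the top of the T0 range. For vehicle against T0 the list median was -3.805, and for B20 against vehicle it was 2.09. Myh2, a fast myosin, was at 3.99, 3.23, 2.07 and -1.12 at T0 and at 3.26, -5.59, 0.26 and -1.78 after B20 (adjusted p = 0.272). The part of muscle and fat RNA in the metabolic results that follow was not tested.

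Genes of lipid synthesis fell. Of 15, 7 fell (46.7%, against 3.73% of all genes called lower) and none rose, with a median of -1.03. Scd1, the stearoyl-CoA desaturase, was at 7.57, 7.10, 6.78 and 6.09 on the T0 arrays and at 5.2, 3.82, 4.71 and 3.81 on the B20 arrays (5.66-fold, difference -2.50, SE 0.38, adjusted p = 0.00528). Dgat2, which makes triglyceride, fell 11.3-fold, Fasn, the fatty acid synthase, by 2.54 and the acetyl-CoA carboxylases Acacb by 2.43 and Acaca by 2.11. Gpam (-1.38) and Lpin1 (-1.29) also fell, while Acly (-0.88), Elovl6 (-0.90) and Srebf1 (0.23) were not called. The list had a median of -1.28 for vehicle against T0 and of 0.07 for B20 against vehicle. Without B20 replicate 2, 3 members were called, and 4 were without T0 replicate 2. Gpam was not called with normexp. Of 19 genes of cholesterol synthesis, 0 were called, with Hmgcs1 at -0.48 and Cyp51 at 0.40.

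Enzymes of the tricarboxylic acid cycle and of pyruvate entry were modestly lower. All 25 were lower in the B20 mean, with a median of -0.59, and 6 were called (24%, against 3.73% of all genes called lower). The 6 were Pcx, pyruvate carboxylase (-1.65), Cs, citrate synthase (-0.95), Pdhb (-0.86) and Dld (-0.71) of pyruvate dehydrogenase, Sdha of succinate dehydrogenase (-0.71) and the malate dehydrogenase Mdh2 (-0.59). Sdha was at 5.21, 4.73, 4.81 and 4.94 at T0 and at 4.25, 4.32, 4.12 and 4.15 after B20 (SE 0.16, adjusted p = 0.0198). Cs was at 7.12, 6.31, 6.07 and 6.10 at T0 and at 5.63, 5.56, 5.44 and 5.18 after B20 (SE 0.22, adjusted p = 0.022). Both pairs of groups were apart, and T0 replicate 1, the array with the most fat and muscle signal, was the highest for each. Vehicle against T0 had a list median of -0.67, and B20 against vehicle one of 0.08. None of the 25 was called without B20 replicate 4, 1 was without T0 replicate 1, 2 were without B20 replicate 2 or 3, and 3 were without B20 replicate 1 or with slide as a random block.

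The median of 69 genes of the respiratory chain and ATP synthase was -0.13, and none rose. Of these genes, 1 fell (1.45%, below the 3.73% of all genes called lower). This was Ndufs1, a subunit of complex I, at 5.59, 4.92, 4.70 and 4.67 at T0 and at 4.31 to 4.34 after B20 (difference -0.64, SE 0.19, adjusted p = 0.0458), a call lost without any one of B20 replicates 1 to 4 or T0 replicates 1 and 2, with normexp and with slide as a random block. Cox5a, of complex IV, was not called (-0.80). Mitochondrial ribosomal proteins gave 0 calls of 39 (median 0.11) and cytosolic ones 0 of 48 (median 0.21, from -0.06 to 0.58). In fatty acid oxidation, 3 of 19 genes fell (15.8%, against 3.73% of all genes called lower). They were Cd36, the fatty acid transporter also abundant in fat and endothelium (-3.38), the dehydrogenase Acadl (-1.08) and Etfdh (-1.03), which passes electrons to the respiratory chain. Cpt1a (-0.67) was not called. The count was 2 without B20 replicate 4 and 5 without T0 replicate 3 or 4, and the list median of -0.63 was -0.35 without T0 replicate 1. For vehicle against T0 the list median was -0.76, and for B20 against vehicle it was 0.15. Among 5 genes of ketone body metabolism, 0 were called, with Bdh1, which interconverts ketone bodies, at 0.65 (adjusted p = 0.076).

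Some hypoxia genes rose. Of 24, 4 rose and none fell, 16.7% against 5.77% of all genes called higher, and the list median was 0.17. Car9, the carbonic anhydrase induced by hypoxia-inducible factor, was at -0.85, -0.68, -0.57 and 0.42 on the T0 arrays and at 2.21, 2.52, 1.19 and 1.34 on the B20 arrays (4.72-fold, difference 2.24, SE 0.39, adjusted p = 0.00787). All B20 arrays were higher, but so were the vehicle arrays, whose mean was 1.95, and B20 against vehicle differed by -0.14. Adm (1.55), the mTOR inhibitor gene Ddit4 (1.41) and Ankrd37 (1.11) rose as well, and these 3 calls were lost with slide as a random block, and each without B20 replicate 1, 2 or 3 or T0 replicate 1 or 2, which left Car9 as the 1 call. Egln3, the oxygen sensor gene, differed by 1.23 and Bnip3 by -0.17 without a call. Glucose transporter gene Slc2a1 was at 3.74 to 4.34 at T0 and at 3.83 to 4.12 after B20 (difference -0.01, SE 0.24, adjusted p = 0.987), and Ldha differed by 0.16 (SE 0.16, adjusted p = 0.565). Of 21 glycolysis genes, 1 rose, Eno2 (1.06), which is 4.76%, below the 5.77% of all genes called higher. The Eno2 call was lost without B20 replicate 1, 2 or 3 or T0 replicate 3 or 4 and with slide as a random block. The lactate exporter Slc16a3 was not called (1.59).

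Luminal keratins and epithelial adhesion genes were not called. Krt18 was at 8.42 to 8.74 before treatment and at 8.29 to 8.71 after B20 (difference -0.09, SE 0.16, adjusted p = 0.78), Krt8 differed by 0.55 and Epcam by -0.61. The mean level of the 18 luminal genes was 3.08 to 3.55 at T0 and 2.74 to 3.22 after B20. Their median difference was -0.29, with 13 lower and 5 higher in the B20 mean. Of the 18, 1 was called (5.56%, against 3.73% of all genes called lower). Esr1, the oestrogen receptor, fell from 1.02, 0.41, -0.24 and -0.76 to -1.34, -2.12, -1.01 and -1.03 (difference -1.48, SE 0.36, adjusted p = 0.0243). The Esr1 call was lost without B20 replicate 2 or T0 replicate 1 or 2. The progesterone receptor gene Pgr was at -0.47, -1.01, -6.01 and -6.66 at T0, 2 arrays well above background, and at -7.10 to -2.99 after B20 (adjusted p = 0.72). Foxa1, a cofactor of the oestrogen receptor, was not called (-2.26). Of 13 basal genes, Krt17 (1.41) and the stem cell receptor gene Lgr5 (1.37) rose, the contractile genes Cnn1 (-2.20) and Oxtr (-1.52) fell, and Krt14 was not called (0.80, adjusted p = 0.0951). The Cnn1 fall is the one also counted among pericytes and smooth muscle. The calls of Krt17, Lgr5, Cnn1 and Oxtr were each lost without B20 replicate 2 or 4 and with slide as a random block. Those of Cnn1 and Oxtr were also lost without B20 replicate 1, and that of Cnn1 without T0 replicate 1.

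Milk genes fell. Of 12, 5 fell (41.7%, against 3.73% of all genes called lower) and none rose, with a median of -1.38. The casein gene Csn2 was at 6.06, 6.56, 8.56 and 7.44 on the T0 arrays and at 4.05, 3.36, 2.24 and 0.94 on the B20 arrays, a 22.7-fold fall (difference -4.51, SE 1.09, adjusted p = 0.024). For Csn1s2a the T0 arrays were at 5.25, 6.28, 8.77 and 7.30 and the B20 arrays at 2.96, 3.27, 1.71 and 0.80 (difference -4.72, SE 0.98, adjusted p = 0.0141). Here T0 replicates 3 and 4 were the highest, the opposite order to the fat genes. Csn1s1 (-3.47), Lao1 (-2.16) and Wap (-1.83) also fell, while Csn3 (0.56), Btn1a1 (0.14) and Glycam1 (-4.66) were not called. Csn2 lost its call without B20 replicate 3 or 4, where 3 members were called. Vehicle against T0 had a list median of -1.57 and B20 against vehicle one of 0.01, and caseins of similar sequence may share probe signal.

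Proliferation genes gave no call. Of 21 genes of mitosis, 0 were called, with a median of -0.23, Mki67 at 3.80 to 4.72 before treatment and 3.73 to 4.64 after B20 (difference -0.09, SE 0.24, adjusted p = 0.841), and Kif20a, a mitotic kinesin, at -0.91 (adjusted p = 0.0651). Of 21 genes of DNA replication, 0 were called, with a median of -0.24 and the licensing factor Cdt1 at -0.62 (adjusted p = 0.0895). T0 replicate 1 was lowest for mitosis, at a mean level of 0.56 against 1.32 to 1.86 on the other T0 arrays, and without it 2 mitosis genes were called lower.

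Interferon response genes were higher after B20. Interferons act through transcription factors of the IRF family and their partners, which bind a repeated GAAA element in the promoters of their targets. Of 28 genes, 10 rose and none fell, 35.7% against 5.77% of all genes, with a median of 0.80. Irf7, the factor that amplifies interferon production, was at -0.15, -0.64, 0.17 and 1.22 on the T0 arrays and at 2.31, 2.61, 1.94 and 1.86 on the B20 arrays (4.09-fold, difference 2.03, SE 0.41, adjusted p = 0.0128). Isg15, a ubiquitin-like modifier, was at 3.97, 3.33, 3.78 and 5.51 at T0 and at 5.66, 6.44, 5.76 and 6.13 after B20 (difference 1.85, SE 0.43, adjusted p = 0.0206). B20 arrays were above all T0 arrays for both, and T0 replicate 4 stood above the other T0 arrays. Oas1a, which senses viral RNA, rose by 1.62, Ifit1 by 1.59, Usp18 by 1.57, Xaf1 by 1.42, Ifi44 by 1.41, Rtp4 by 1.38, the GTPase gene Igtp by 1.00 and Irf9, a transcription factor of the same family as Irf7, by 0.70. Irf1 (0.21) and Cxcl10 (0.27) were not called, and Cxcl9 differed by -0.84.

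On the vehicle arrays the median of these genes was -0.21 against T0, and the median for B20 against vehicle was 1.25, where no gene was called. For Irf7 the side by side differences were 0.30 for vehicle against T0, 1.73 for B20 against vehicle and 2.60 for nintedanib against T0. The count of calls rested on single arrays. It was 2 without B20 replicate 4 or T0 replicate 1 or 2, 3 without B20 replicate 2, 4 without B20 replicate 1, 5 without B20 replicate 3 or T0 replicate 3, 17 without T0 replicate 4 and 4 with slide as a random block, and Irf7 and Xaf1 were called in each of these.

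The promoters of called members are shown because the core of the interferon-stimulated response element, searched here as GAAA, any 2 bases and GAAA again, is the sequence through which these genes are known to respond. The window was 250 bases before to 50 after each RefSeq start on GRCm38.p6, searched on both strands with overlapping matches allowed, and 23 of the 28 members had a promoter in the table. The core was present in 14 of these (60.9%) and in 3.99% of the promoters of 27025 genes. It was found in 4 of the 8 called members with a promoter and in 10 of the 15 that were not called. Capitals mark the core or its reverse complement, and overlapping matches run together.
Ifit1, chr19:34640769-34640848, plus strand: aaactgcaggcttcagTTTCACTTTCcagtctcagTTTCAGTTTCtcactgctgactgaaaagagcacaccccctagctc
Isg15, chr4:156200840-156200919, minus strand: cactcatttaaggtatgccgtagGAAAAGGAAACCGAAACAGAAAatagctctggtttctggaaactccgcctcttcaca
Oas1a, chr5:120907526-120907605, minus strand: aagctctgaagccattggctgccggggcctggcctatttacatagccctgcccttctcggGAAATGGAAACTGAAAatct
Igtp, chr11:58199476-58199555, plus strand: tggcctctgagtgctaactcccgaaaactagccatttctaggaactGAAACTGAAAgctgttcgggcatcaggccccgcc
Isg15 held 3 overlapping matches, Ifit1 and Oas1a 2 each and Igtp 1.

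Antigen presentation genes moved little. Of 8 genes of MHC class II, 1 rose, H2-DMb1 (0.60, SE 0.16, adjusted p = 0.0359), a call lost with slide as a random block and when any array but T0 replicate 4 was left out. Of 12 genes of MHC class I, 0 were called, with B2m at -0.74 (adjusted p = 0.0673).

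Several inflammatory genes rose. Il1b, the cytokine interleukin-1 beta, was at -2.84, -3.00, -1.86 and -1.39 on the T0 arrays and at 0.94, -0.16, 0.52 and 0.23 on the B20 arrays (6.3-fold, difference 2.66, SE 0.39, adjusted p = 0.00439). Ptgs2, cyclooxygenase 2, rose 11-fold, from -4.46, -3.56, -4.14 and -3.72 to -0.93, -0.65, -0.82 and 0.34 (difference 3.46, SE 0.44, adjusted p = 0.00286). The groups were far apart for both and both calls held with each array left out and with slide as a random block. Their vehicle values differed: the mean of Ptgs2 was -1.10 after vehicle (2.87 above T0), whereas Il1b was 0.85 above T0 after vehicle and 1.80 higher after B20 than after vehicle, with an adjusted p of 1 in the last comparison. Of 21 chemokines tested, 2 rose and 1 fell (14.3% called, against 9.5% of all genes), with a median of 0.06. The neutrophil attractants Cxcl5 (2.92, well above background on 2 T0 arrays) and Cxcl1 (1.55) rose and Cxcl12, made by stroma, fell (-1.72). Of 8 neutrophil genes, Il1b and S100a8 (1.32) rose (25%, against 5.77% of all genes called higher) and S100a9 was not called (2.39). Their median was 0.91, with 7 higher and 1 lower in the B20 mean. It was 0.47 for vehicle against T0 and 0.71 for B20 against vehicle. The mean level of the list was -0.25 to 0.88 at T0 and 1.23 to 2.11 after B20. The S100a8 call was lost with slide as a random block and when any array but T0 replicate 4 was left out, Cxcl5 without B20 replicate 2, and Cxcl1 without B20 replicate 2 or 4 or T0 replicate 1 or 2. T0 replicate 4 had a chemokine list mean of 0.51 against -0.81 to -0.71 on the other T0 arrays.

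Apart from the neutrophil genes, markers of immune cells gave few calls. The pan-leukocyte gene Ptprc was at -0.63 to -0.03 at T0 and at -0.52 to -0.05 after B20 (difference 0.19, SE 0.18, adjusted p = 0.534). Of 16 macrophage genes, 0 were called, with the mannose receptor gene Mrc1 at -0.99 (adjusted p = 0.11) and Mertk at -0.64 (adjusted p = 0.0806). Of 14 genes of T and NK cells, 0 were called, with the NK receptor gene Ncr1 at -1.75 (adjusted p = 0.0767, well above background on 2 B20 arrays), and of 8 genes of B and plasma cells, 0 were called. Of 4 erythroid genes tested, Slc4a1, the anion exchanger of red cells, rose by 1.44, with 3 of the 4 T0 arrays well above background, and was not called with normexp. Of 15 immediate early genes, 1 rose, Ier3 (1.12), which is 6.67%, near the 5.77% of all genes called higher. The Ier3 call was lost without T0 replicate 1, and Fos (1.23) and Fosb (1.52) were not called. Of 16 genes of endoplasmic reticulum and amino acid stress and of 6 skin genes, 0 were called. Among 11 acute phase genes, Orm1 (-2.89), Orm2 (-2.60) and Serpina3n (-1.68) fell and Saa3 was not called (0.67), and 1 of the 3 was called without B20 replicate 4 or T0 replicate 1. The Orm genes, which fat also makes, were lower still after vehicle, by 5.00 and 4.05 below T0.

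Other named genes also had large rises. Npy, neuropeptide Y, was at -2.22, -4.37, -4.19 and -2.99 on the T0 arrays and at 0.35, 1.09, 2.10 and 0.94 on the B20 arrays, a 23.6-fold rise (difference 4.56, SE 0.45, adjusted p = 0.000713). Cdkn2a, which encodes the cell cycle inhibitors p16 and p19Arf, was at -4.30, -2.62, -2.04 and -2.51 at T0 and at 1.78, 1.54, -0.56 and 0.15 after B20, a 12.1-fold rise (difference 3.59, SE 0.64, adjusted p = 0.00819). Both groups were apart for each gene, and vehicle was as high, at means of 0.91 for Npy and 0.61 for Cdkn2a. The secreted proteins Dcpp1 (3.47), Dcpp3 (3.43) and Dcpp2 (3.39), which make up a list of their own, rose together. They were higher still after vehicle, by a median of 4.98 above T0. Their sequences are alike, so their probes may share signal. Bpifb5 (3.41), S100g, a calcium-binding protein (2.91), and Gml2 (2.59) rose as well. Without B20 replicate 2 or 4 only Dcpp2 of the 3 was called, S100g lost its call without B20 replicate 4, and Gml2 without B20 replicate 2 or 4 or T0 replicate 1 or 2. S100g was at 1.28 to 2.23 after B20 and had a mean of 0.21 after vehicle, 1.66 lower.

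**Figure D4:**
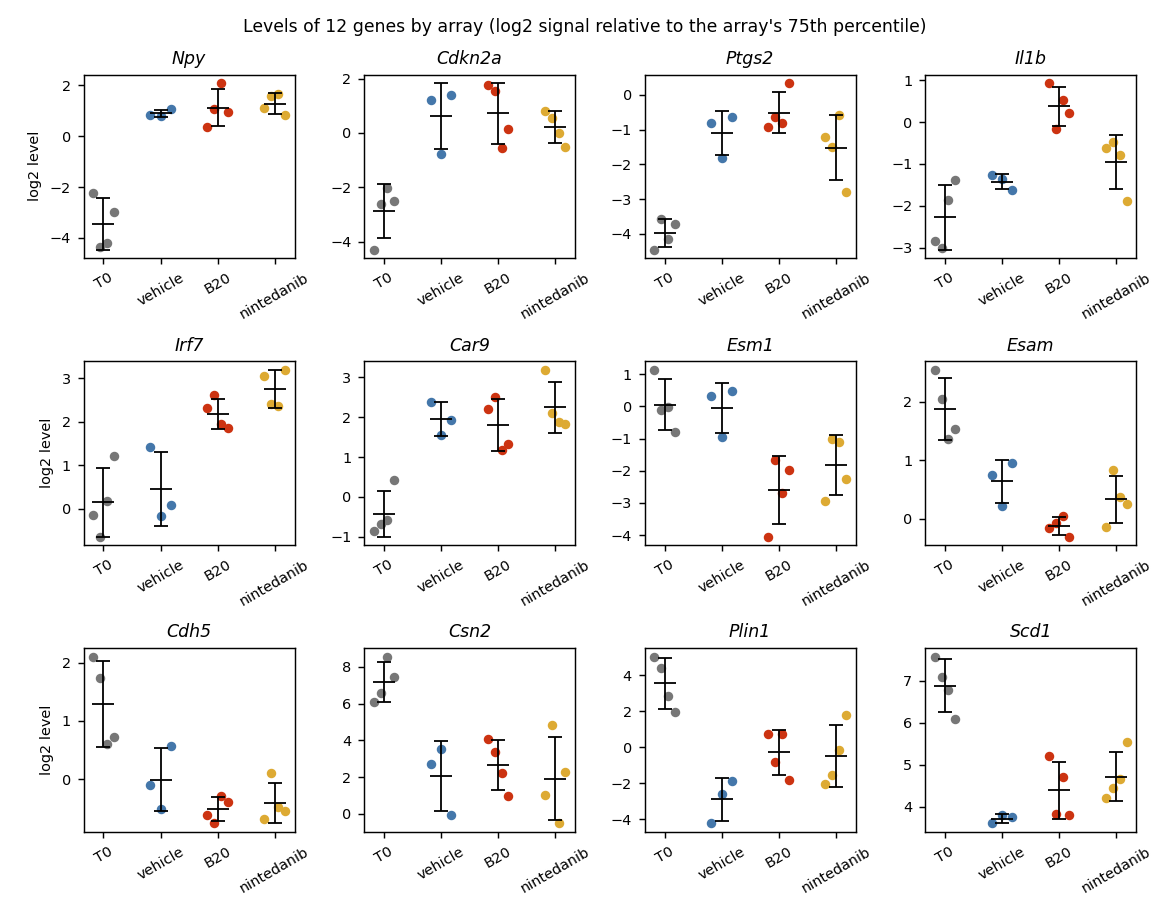
Log2 levels relative to the array's 75th percentile for 12 genes, 1 point per array, with T0 in grey, vehicle in blue, B20 in red and nintedanib in yellow, and black bars for the mean and SD of each group. For Npy, Cdkn2a and Car9 vehicle and B20 lie together above T0, while for Il1b, Irf7 and Esm1 the vehicle arrays lie nearer to T0 than the B20 arrays do.

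Some rises had a low p with a small spread between arrays. Hap1, a trafficking protein, was at 1.53, 1.64, 1.32 and 1.43 at T0 and at 3.14, 3.43, 3.25 and 3.54 after B20 (3.62-fold, SE 0.19, adjusted p = 0.000713). Dsp, the desmosomal protein desmoplakin, rose from -0.41 to 0.27 at T0 to 1.51 to 1.85 after B20 (3.54-fold, adjusted p = 0.00165), although its other probe differed by 0.53. Atg16l2 rose by 1.27 (adjusted p = 0.00309). B20 against vehicle differed by -0.08 for Hap1, -0.03 for Dsp and 0.06 for Atg16l2.

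Members of 2 families of secreted proteins fell. Mup19, a major urinary protein, was at 5.31, 3.64, 2.63 and 3.96 on the T0 arrays and at -0.28, 0.31, -1.51 and -0.41 on the B20 arrays, a 20.5-fold fall (difference -4.36, SE 0.63, adjusted p = 0.00419), and Mup20 (-4.27) and Mup4 (-3.68) fell with it. The alpha-1 antitrypsin genes Serpina1e (-2.16), Serpina1a (-2.16) and Serpina1c (-2.02) fell with tight replicates: Serpina1e was at -0.20 to 0.44 at T0 and at -2.46 to -1.91 after B20 (adjusted p = 0.00165). Vehicle was also below T0, by -3.93 for Mup19, -3.58 for Mup20 and -1.37 for Serpina1e. B20 against vehicle differed by -0.43, -0.69 and -0.79 for the same genes. All 8 Mup genes tested were lower and 6 of them were called. Of 5 Serpina1 genes 4 were called lower, while Serpina1f differed by 0.90. Some members of each family are near-identical copies, so the single members are uncertain. Tenm4, a teneurin, fell from 4.42, 4.50, 4.75 and 3.0 to 1.29, 1.05, 2.01 and 1.35 (6.7-fold, adjusted p = 0.00354), and its other probe differed by -0.63.

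A few genes were well above background on all arrays of one group and on none of the other, and have only a bound there. For the bound, each dim array counts at the probe's own signal or, if that is greater, at the faintest signal of any probe well above background there. The granzyme gene Gzme was at least 25.9-fold higher after B20 (means -1.33 and -6.02), Krt6b, a keratin of stressed epithelium, at least 12.2-fold, and Olfr1316, Rdh1 and Gm10825 at least 6.61-, 6.01- and 5.69-fold. With normexp background correction none of these 5 was called, with adjusted p of 0.15, 0.13, 0.11, 0.089 and 0.053 in that order. Gzme was higher still after vehicle: vehicle against T0 differed by 6.09 and B20 against vehicle by -1.39. On the lower side, the aminopeptidase gene Enpep was at least 24.9-fold lower after B20, the melanin enzyme gene Dct 20.6-fold, Wnt2, which encodes a Wnt ligand, 11.5-fold, Btnl9 11-fold and Jakmip3 10.5-fold. Of these, Wnt2 was not called with normexp (adjusted p = 0.076) nor with slide as a random block. The bounds moved most for Krt6b, to 6.48-fold without B20 replicate 3, Gzme, to 15.7-fold without B20 replicate 2, and Jakmip3, to 6.39-fold without T0 replicate 3. Gzme lost its call without B20 replicate 2 or T0 replicate 1, Jakmip3 without B20 replicate 4, and Wnt2 without B20 replicate 2, 3 or 4 or T0 replicate 1 or 2.

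**Figure D5:**
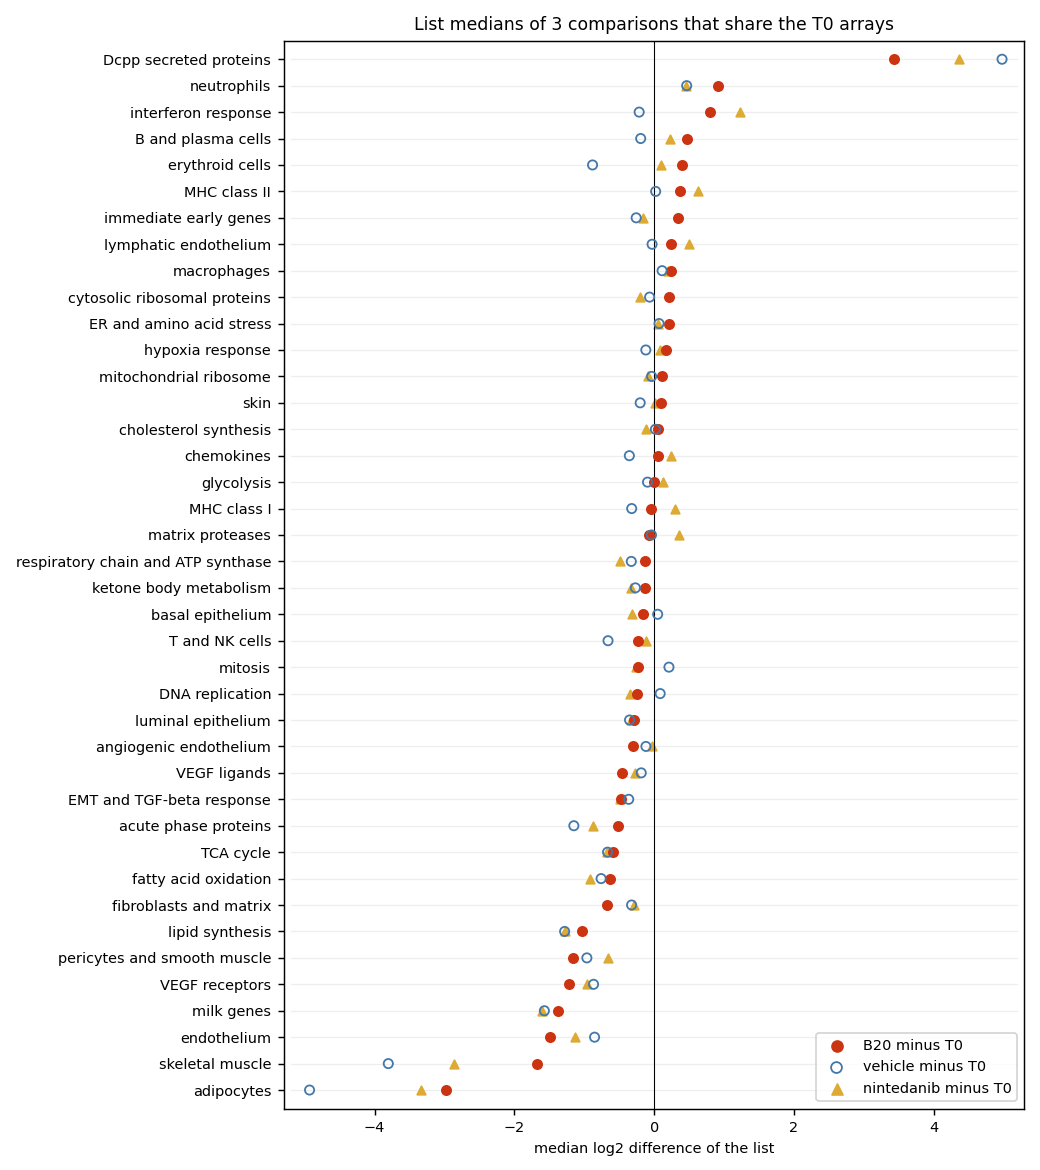
Median log2 difference of 40 gene lists for B20 against T0 (red), vehicle against T0 (open blue) and nintedanib against T0 (yellow triangles), which share the 4 T0 arrays. For adipocytes the medians are -2.98, -4.93 and -3.34, and for interferon response 0.80, -0.21 and 1.22.

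List medians against T0 for the 3 end-of-treatment groups are shown side by side in the plot of list medians. Because these comparisons share the T0 arrays, no likeness between them was computed. For milk genes the medians were -1.38 for B20, -1.57 for vehicle and -1.60 for nintedanib, for the tricarboxylic acid cycle -0.59, -0.67 and -0.68, and for endothelium -1.49, -0.85 and -1.14.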

How the data were processed

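Cy3-labelled RNA was hybridised to 1-colour Agilent arrays, 1 per tumour sample. Per the file headers, the deposited intensity values were made by the authors with Feature Extraction 10.7.3.1, and the processed signal is already background-corrected. Spot flags for outliers, saturation and signal above background (0 or 1) were deposited with them. The authors' value table holds log2 values, deposited with no stated method. They differed from a normexp and quantile version of the scanner signals by at most 0.0092 (median absolute log2 difference), with column medians of 6.62 to 6.63, so the scale is log2, with no centring of genes.

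Here, log2 processed signals were scaled to each array's 75th percentile. Of 55681 probes, 26056 had a symbol (19752 symbols) and 29625 were unnamed. Spots of a probe were averaged without outlier spots, with 82 values imputed where all spots of a probe were outliers, 55 of them on the 8 arrays compared and none in a gene of the lists or the naming rule. Probes well above background on at least 3 arrays were kept, and the brightest probe stood for a gene. limma 3.58.1 in R 4.3.3 fitted 4 group means over 15 arrays, with two-sided tests and Benjamini-Hochberg adjustment over 28074 genes. The script was tested on simulated data.

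The lists and members were chosen with earlier results of these data known, so they are described by counts and medians with no set test. Genes were named by rule: among called genes with a symbol, the 10 largest differences and 5 lowest p in each direction with arrays apart, the 5 largest bounds in each direction, up to 4 called members of each list (or the 2 of lowest p), and a short fixed list. Other list members given as single differences were picked after their values were seen. The fixed list also held Cd68, which was not among the genes tested. Precision is limited by the number of arrays. The normexp alternative used the median spot signal, since the scanner files used here give no mean signal. Promoters came from the RefSeq table for GRCm38.p6, matched by symbol. Results for some genes are not reported here.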

Additional observations from a re-analysis of the deposited data

Results flagged for a closer look

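In 382 sets of 4 arrays, covering named genes, list means and array measures, 9 had 1 array far from the other 3 by Dixon's test, which flags about 1 in 20 by chance. Among B20 arrays these were Krt6b in replicate 3 (-0.23 against -4.04 to -3.57), Olfr1316 in replicate 1 (-4.74 against -3.46 to -3.29) and Tie1 in replicate 4 (-3.66 against -2.79 to -2.66). Among T0 arrays they were H2-DMb1 in replicate 3 (2.32 against 2.87 to 2.96), Ncr1 in replicate 3 (-1.99 against -3.60 to -3.36) and Cd79a in replicate 1 (-6.24 against -5.41 to -5.26). The mitochondrial ribosome list had a mean level of 4.07 in T0 replicate 4, against 3.44 to 3.53 on the other T0 arrays, and the chemokine list one of 0.51 in the same array against -0.81 to -0.71. The median spot signal of T0 replicate 3 was 102 against 55 to 60.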

How the results depend on the processing

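The 2666 calls (1620 higher, 1046 lower) kept their direction under every alternative that tested them, except that 2646 of them did with the mean of a gene's probes and 1980 were tested and kept it with probes well above background on all 8 arrays. The count was 2823 with quantile normalisation, 2688 with the authors' table, 2420 with probes above background on all 8 arrays, 2288 with the mean of probes and 1828 with no filter on dim probes. It moved to 1182 with median scaling (709 higher, 473 lower), 1606 with normexp (861 higher), 973 with only the 8 arrays (635 higher, 338 lower), 1536 with slide as a random block (984 higher, 552 lower, correlation 0.131), 6072 with array weights (3868 higher, 2204 lower) and 1703 with an absolute difference of at least 1 as well (993 higher). With T0 replicates 1 and 2 only it was 4285 (2682 higher, 1603 lower), and with T0 replicates 3 and 4 only 456 (252 higher, 204 lower). With B20 replicates 1 to 3 only it was 919 (548 higher, 371 lower), and with B20 replicate 4 alone, assumed to vary like the other groups, 4 (4 higher, 0 lower). Leaving out 1 array at a time gave 919 to 3299 calls (548 to 2167 higher, 371 to 1404 lower). The share of higher calls was 60.8%, and 53.6% with normexp and 68.5% without T0 replicate 3. Same-numbered B20 and T0 arrays shared only a number (correlations of deviations 0.38, -0.246, -0.13 and -0.132), and with the replicate block there were 0 calls (0 higher, 0 lower). Of 108 called named genes, 51 kept their call with each array left out and all 108 kept their direction under every alternative that tested them. The alternatives reuse the same arrays, so a kept direction is not an independent check. With only the 8 arrays or with the replicate block the differences are those of the main fit, so direction could not change there. The causes were not tested. Dim probes limit what signal over background can show.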

Other observations

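The gene families below were chosen after their values were seen and have no test of their own. Of 8 major urinary protein genes, 6 fell, with a median difference of -3.40, and 6 were called lower with normexp. Their median was -2.66 for vehicle against T0 and -0.56 for B20 against vehicle. Of 5 genes of the Serpina1 family, 4 fell and Serpina1f, well above background on 1 of the 4 T0 arrays, was not called. The median of this family was -1.30 for vehicle against T0 and -0.77 for B20 against vehicle.

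Of 8 granzyme genes, 1 rose, Gzme. The family median was 1.06 for B20 against T0, 1.36 for vehicle against T0 and -0.47 for B20 against vehicle. Gzmc (1.56, adjusted p = 0.0793) was not called. Gzmg (adjusted p = 0.0736) and Gzmf (adjusted p = 0.236) were not called either and were well above background on 1 and 0 of the 4 T0 arrays. Gzma (-0.26) and Gzmb (-0.27), the granzymes of most killer lymphocytes, were not called. The Gzme call was lost without B20 replicate 2 or T0 replicate 1.

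Receptors of the nose were also among the rises. Of 264 olfactory receptor genes tested, of 1057 on the array, 36 rose and 3 fell (5.77% of all genes rose), with a median of 0.47, and 61 were well above background on all 8 arrays. Of 71 vomeronasal receptor genes, 11 rose and none fell, with a median of 0.51. Leaving out 1 array gave 11 to 65 olfactory rises, fewest without B20 replicate 4 and most without T0 replicate 3, and 13 without B20 replicate 2, 15 without T0 replicate 1 and 17 without T0 replicate 2. For vomeronasal receptors it gave 3 without B20 replicate 4 or T0 replicate 1, 5 without B20 replicate 2, 6 without T0 replicate 2 and 8 to 15 otherwise. With normexp the higher calls were 7 and 3 and the medians 0.15 and 0.15.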
